A study of Mus musculus with 18 samples.

Results

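Within the thyroid left by partial thyroidectomy, the central area of a lobe was set against its periphery. The comparison is between 10 of the 18 arrays of the series, namely those titled as dissected central cells (n = 5) and dissected peripheral cells (n = 5), chosen by these labels and not by any measured value. Both groups were male C57BL/6 mice after surgery, and the areas were cut from frozen sections by laser capture microdissection, which lifts chosen cells from a slice under the microscope. Antisense RNA of each area was amplified with the RiboAmp PLUS kit, labelled with Cy5 using the Arcturus Turbo kit and hybridised together with a Cy3-labelled reference, the Ambion Mouse Assorted Total RNA of Swiss Webster mice. That reference was drawn from embryo, thymus, spleen, brain, heart, lung, liver, kidney and gonads of both sexes, with no thyroid among the tissues listed. The remaining arrays carried normal thyroid of the same strain and sex, 5 from the central and 3 from the peripheral area, and served to ask whether the difference between areas was another one after surgery. They entered the same fit, so they also bear on the filter for dim probes and on the spread behind every adjusted p. With the 10 dissected arrays fitted alone, 21 genes were called in place of 86, all of them among the 86. The labels give neither the time since surgery nor the age of the mice, and they tie no area to an animal. Areas of 1 mouse may therefore stand in both groups, a pairing that the fit leaves out. The p-values rest on the spread among areas, and may be too small if 1 mouse gave several areas of a group.

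The thyroid lobe is built of follicles, whose epithelial cells, the thyrocytes, make thyroglobulin and turn it into thyroid hormone. Between and beside the follicles sit the C cells, or parafollicular cells, which secrete calcitonin and are known to lie mainly in the middle of the rodent lobe. C cells are endocrine cells of a neuronal kind. They store peptide hormone in dense-core granules held together by granins, cut prohormones with convertases, take up and decarboxylate amine precursors, and release their granules when calcium enters the cell.

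Of 14664 genes tested, 86 differed between the areas of the dissected thyroid at an adjusted p under 0.05 in limma, or 0.586% of the genes. All 86 were higher in the central area. None was called lower, the smallest adjusted p on that side being 0.0629, although 429 genes lay lower and 660 higher at an unadjusted p under 0.05. The central and peripheral arrays did not overlap for 174 genes that lay higher in the central area (1.19% of the 14659 with a value on each array) and for 66 that lay lower (0.450%). The called differences ran from 0.61 to 4.50 on the log2 scale, with 9 of at least 3, 27 between 2 and 3, 39 between 1 and 2, and 11 below 1. On every slide that gave both values, 84 of the 86 lay higher centrally, and 67 had no overlap between the arrays. The 86 were chosen by this difference on the same arrays, which favours both counts. The median difference over all genes tested was -0.00. All values below are log2 ratios of captured tissue (Cy5) over the reference (Cy3), and a difference is central minus peripheral. Normalization centred the ratios of each array near 0 at every intensity. A level of 0 therefore means the typical ratio of probes of that brightness, and not equal signal in tissue and reference. In such bulk samples, fewer cells of a type and less RNA per cell cannot be told apart.

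The arrays were not equally strong. The share of gene probes above background in Cy5 ran from 28.1% to 44.0%, and central arrays 1 and 2 and peripheral array 1 had the lowest shares of the 10, at 29.5%, 28.1% and 28.7%. Central array 2 also stood apart in the called genes, where it was the lowest central array for 77 of the 85 genes with a value on each central array. The median over the called genes was -0.76 on central array 2, against 0.02, 0.89, 0.61 and 0.70 on central arrays 1, 3, 4 and 5. On the peripheral arrays the same median lay between -1.83 and -1.09, highest on peripheral array 1. Without central array 2, the genes called numbered 173, among them all 86. Leaving out central array 3, 4 or 5 gave 48, 52 or 53 calls, and leaving out peripheral array 2 or 3 gave 56 or 52. Each replicate number stood for 1 slide with both areas side by side, and each area kept 1 position on the slide, so position and area cannot be told apart. The 4 dissected arrays scanned on 1 day gave 26 calls, all higher in the central area. The 6 scanned on another day, which include the 3 weak ones, gave 0. Both fits also held the normal arrays of the same day, which bear on the spread.

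**Figure D1:**
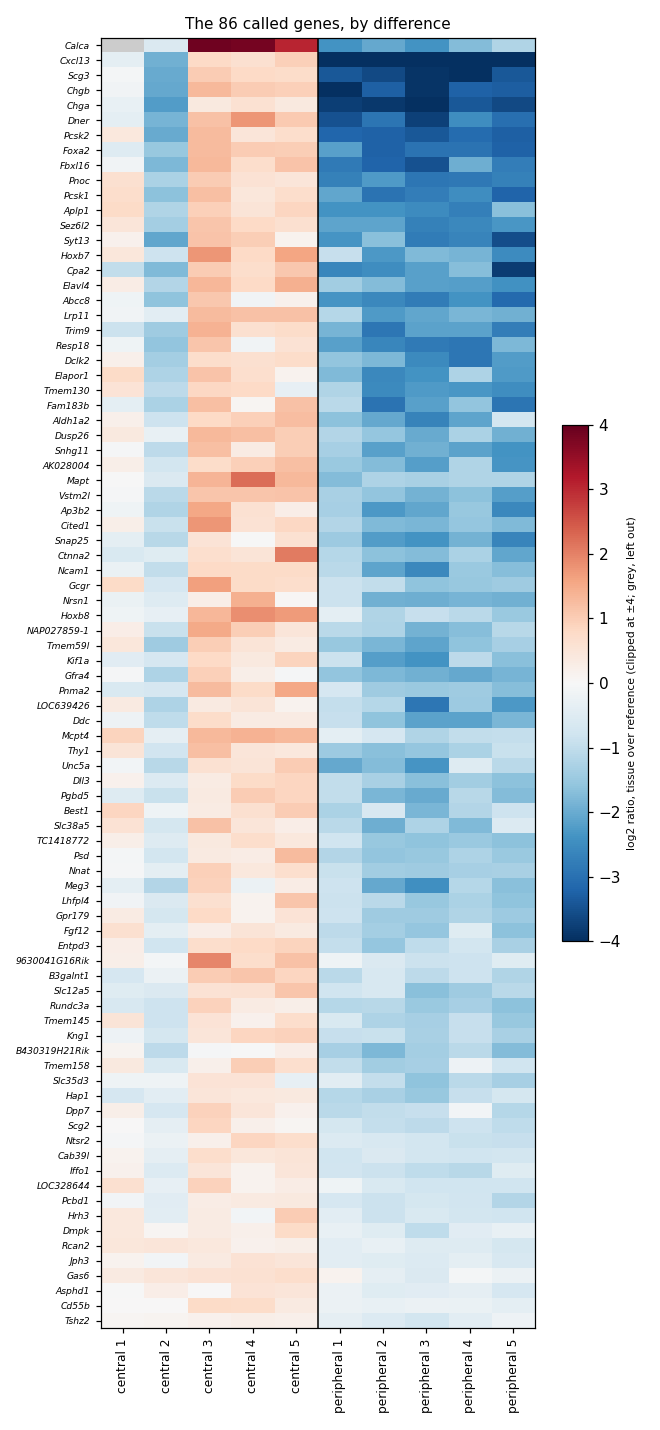
Log2 ratio of tissue over reference for the 86 called genes (rows, ordered by their difference) on the 5 central and 5 peripheral arrays of dissected thyroid (columns); the colour scale is clipped at 4 in either direction and the grey cell is a spot that was left out. The central block is mostly above 0 and the peripheral block below it, and central array 2 is the palest or bluest central column for most genes.

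Calca, which encodes calcitonin and, by alternative splicing, the neuropeptide CGRP, lay at -0.57, 3.88, 3.82 and 3.05 on central arrays 2 to 5, its spot on central array 1 having been left out as non-uniform. On peripheral arrays 1 to 5 it lay at -2.39, -2.05, -2.39, -1.72 and -1.20. No central value reached down to a peripheral one, though central array 2 came close. The difference was 4.50 (SE 0.66, adjusted p = 0.00307), or 22.6-fold. It was not called with the 10 dissected arrays fitted alone (4.50, adjusted p = 0.0672), nor on the arrays of scan day 2 alone, the arrays having been scanned on 2 days (3.12, adjusted p = 0.823). Its size depended on the reference channel. In Cy3, where each array held the same reference RNA, this probe's intensity reached 18233 to 204897 in the central group but 259124 to 415403 in the peripheral group, and with Cy5 alone the difference was 1.24 (adjusted p = 0.00305). The part of this in the ratio was not tested. A second Calca probe, designed on another transcript of the gene, overlapped in Cy3, with 8088 to 21096 in the central and 8662 to 29016 in the peripheral group. That probe lay at -0.48, -2.32, 1.38, 1.00 and 0.76 on central and at -4.49, -3.54, -4.58, -3.32 and -4.82 on peripheral arrays, a difference of 4.22 (SE 0.53, adjusted p = 0.000913). Both probes map to chromosome 7 of mm7, the first at 110549383 to 110549442 and the second at 110547755 to 110547814. For the 86 called genes together, the median difference was -0.01 in Cy3 alone and 1.62 in Cy5 alone.

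Other peptide hormones did not pass the test. Of the 19 hormones and precursors listed for C cells and related endocrine cells, 14 could be tested, 12 lay above 0 and 1, Calca, was called, with a list median of 0.28. Grp, the gastrin-releasing peptide, lay at -0.35, -3.56, 0.58, 1.45 and 0.51 on central and between -3.30 and -1.54 on peripheral arrays, a difference of 2.55 (SE 0.70, adjusted p = 0.15). Central array 2 was here as low as the periphery. Sst, which encodes somatostatin, an inhibitory hormone found in some C cells, differed by 1.77 (SE 0.55, adjusted p = 0.269), and its level of 2.37 on central array 5 stood far above the other central arrays, at -1.40 to -0.84. Pnoc, the precursor of nociceptin, was not on that list. It lay at 0.64, -1.26, 1.01, 0.59 and 0.49 on central and between -2.90 and -2.28 on peripheral arrays, a difference of 2.98 (SE 0.32, adjusted p = 0.000216). A second Pnoc probe gave 0.81 (SE 0.20) and was not called.

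The granins were the list with the highest median difference, 2.43, and 5 of the 7 tested were called. Granins are acidic proteins that aggregate in the secretory pathway and sort hormones into granules. Scg3, which anchors granin aggregates to the granule membrane, lay at -0.07, -2.02, 1.01, 0.80 and 0.74 on central and at -3.38, -3.60, -3.91, -4.43 and -3.38 on peripheral arrays. The lowest central value was thus above the highest peripheral one, and the difference was 3.83 (SE 0.43, adjusted p = 0.00035), or 14.2-fold. Chgb, chromogranin B, lay at -0.13, -2.04, 1.29, 1.01 and 0.96 against -4.22, -3.27, -3.92, -3.25 and -3.30. Its difference of 3.81 (SE 0.46, adjusted p = 0.000585) was close to that of Scg3. Chga, chromogranin A, differed by 3.50 (SE 0.53, adjusted p = 0.00334) and Resp18, an endocrine granule protein, by 2.43 (SE 0.40, adjusted p = 0.007). Scg2, secretogranin II, was well above background on no peripheral array and was at least 1.63-fold higher in the central area (measured difference 1.07, adjusted p = 0.0357). That call was lost without any 1 of 9 arrays, at adjusted p from 0.0502 to 0.111, and held only without central array 2. Pcsk1n and Scg5, which inhibit or chaperone prohormone convertases, differed by 0.95 (adjusted p = 0.374) and 0.50 (adjusted p = 0.818).

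Both convertases that cleave prohormones inside granules were higher in the central area. Pcsk2 lay at 0.43, -2.02, 1.25, 0.49 and 0.70 on central and within -3.39 to -3.08 on peripheral arrays, and differed by 3.40 (SE 0.42, adjusted p = 0.000829). Pcsk1 lay at 0.69, -1.63, 1.20, 0.46 and 0.70 on central and within -3.19 to -2.09 on peripheral arrays and differed by 2.98 (SE 0.43, adjusted p = 0.00244). A second Pcsk1 probe gave 0.54 and was not called. Cpe, the carboxypeptidase that trims the cleaved peptides, differed by 1.46 (SE 0.41, adjusted p = 0.179), with arrays of the areas overlapping. Furin and Pam, which act in many secretory cells, differed by 0.35 and -0.10. Together 2 of the 7 processing genes tested were called.

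**Figure D2:**
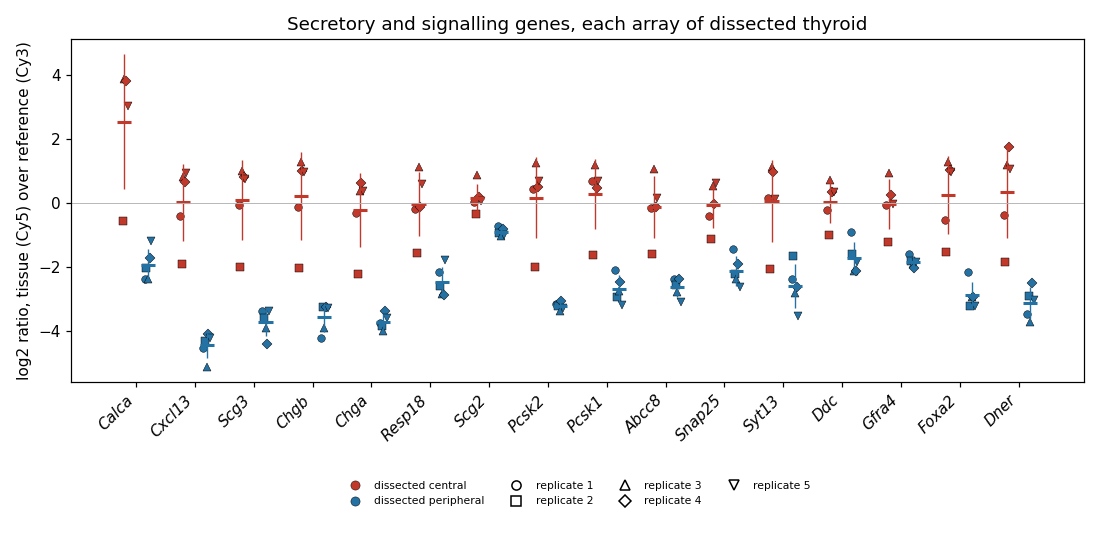
Log2 ratio of tissue over reference on each array for 16 genes of the secretory pathway, signalling and transcription, in dissected central (red) and dissected peripheral (blue) thyroid; symbols mark the replicate number, horizontal bars the mean and vertical lines 1 SD. Replicate 2 (square) is the lowest central point for all 16 genes, and Syt13 and Ddc are those whose areas overlap.

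Promoter sequences are shown for 3 of these secretory genes, because the letters TGACGTCA, the palindrome known as the cAMP response element, occur at a similar distance from their start sites. RefSeq promoters on build GRCm38.p6, running from 250 bases before to 50 after the start, were held for 61 of the 86 called genes, and 25 had no entry. The stretches are chr2:132781392-132781691 (plus strand) for Chgb, chr1:79439977-79440276 (minus strand) for Scg2 and chr13:75089607-75089906 (plus strand) for Pcsk1, written 5′ to 3′ along the gene, with the element in capitals.
Chgb: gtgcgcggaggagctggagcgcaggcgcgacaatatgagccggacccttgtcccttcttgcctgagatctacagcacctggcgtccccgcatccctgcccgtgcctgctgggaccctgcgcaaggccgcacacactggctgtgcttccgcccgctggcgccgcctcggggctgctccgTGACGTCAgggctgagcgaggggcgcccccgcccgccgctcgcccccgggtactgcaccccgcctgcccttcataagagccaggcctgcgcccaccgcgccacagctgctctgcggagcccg
Scg2: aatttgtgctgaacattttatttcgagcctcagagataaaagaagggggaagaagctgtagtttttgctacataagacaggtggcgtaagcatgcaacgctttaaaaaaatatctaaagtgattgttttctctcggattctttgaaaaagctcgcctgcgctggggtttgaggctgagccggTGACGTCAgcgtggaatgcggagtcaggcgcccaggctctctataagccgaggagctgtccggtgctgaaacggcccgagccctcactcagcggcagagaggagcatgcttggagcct
Pcsk1: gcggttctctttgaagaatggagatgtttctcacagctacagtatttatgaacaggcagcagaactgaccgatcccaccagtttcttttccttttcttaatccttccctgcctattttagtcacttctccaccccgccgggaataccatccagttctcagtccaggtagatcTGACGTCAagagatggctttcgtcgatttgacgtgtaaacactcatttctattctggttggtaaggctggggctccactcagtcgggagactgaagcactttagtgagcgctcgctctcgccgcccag
The element begins 72 bases before the start site in Chgb, 68 in Scg2 and 78 in Pcsk1. It was also found in Meg3 and Tmem59l, 57 and 22 bases before the start. In all, 5 of the 61 promoters held it (8.2%), against 1.88% of the 27025 promoters in the table. The letters CAGCACC, one side of the element bound by the neuronal repressor REST, were present on either strand in 12 of the 61 (19.7%) and in 7.09% of all promoters, with Chgb, Scg2, Dner, Kif1a, Gfra4, Hrh3, Lrp11 and Trim9 among the 12. The forkhead letters TGTTTAC were found in 1 of the 61, Pcsk1 (1.64%, against 3.55% of all), and TGTTTGC in none of them (5.04% of all). The E boxes CAGCTG and CACCTG were found in 26.2% and 32.8% of the 61, against 16.1% and 20% of all promoters. TATAAA was found in 16.4% (14.2% of all) and TGATTTAT, a HOX motif, in none (1.04% of all). A longer form of the REST element was found in 1 promoter, that of Hrh3 (1.64%, against 0.0518% of all). Each motif was searched on both strands of 1 promoter per gene, the first listed. The 27025 include promoters of genes that were not tested here, so the called genes are set against a broader set. The called genes' promoters had a higher median GC content, 58.3% against 52.7%, and the part of this in the motif shares was not tested.

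Granule release was represented by fewer calls. Of 22 tested genes of regulated exocytosis, 2 were called and 18 lay above 0, with a list median of 0.34. Snap25, a SNARE protein that drives fusion of granules with the membrane, lay at -0.40, -1.12, 0.54, -0.03 and 0.62 on central and within -2.65 to -1.45 on peripheral arrays, a difference of 2.05 (SE 0.32, adjusted p = 0.00393). Its second probe gave 1.80. Syt13, a synaptotagmin, differed by 2.67 (SE 0.46, adjusted p = 0.00838), although its -2.08 on central array 2 fell below the -1.67 on peripheral array 2. Just beyond the threshold were Snap91, a clathrin assembly protein (1.44, adjusted p = 0.0542), Cadps, which primes dense-core granules (0.88, adjusted p = 0.0683), and Cplx2, a complexin (1.01, adjusted p = 0.0732).

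Single members of the other C cell lists were called. Abcc8, the sulphonylurea receptor subunit of potassium channels that close when ATP is high, lay at -0.16, -1.60, 1.08, -0.14 and 0.16 on central and within -3.11 to -2.37 on peripheral arrays, a difference of 2.51 (SE 0.36, adjusted p = 0.00244). It was the only called gene of the 7 channel genes tested. The calcium-sensing receptor Casr, through which C cells read blood calcium, and the receptor kinase Ret were too dim to be tested. Gfra4, the co-receptor of Ret for persephin, differed by 1.82 (SE 0.34, adjusted p = 0.016), with -0.05, -1.23, 0.95, 0.24 and -0.04 on central and -2.04 to -1.59 on peripheral arrays. Its call was lost without central array 3 (1.58, adjusted p = 0.0556), central array 4 (1.75, adjusted p = 0.0587) or peripheral array 3 (1.80, adjusted p = 0.0527), and a second Gfra4 probe gave 0.23. Ddc, the decarboxylase that makes serotonin and dopamine from their precursors, was the 1 called gene of 7 tested in the amine list. It differed by 1.76 (SE 0.34, adjusted p = 0.0171) with overlapping arrays, and the call was lost without central array 3, 4 or 5 (1.59, 1.69 and 1.68) or peripheral array 3 or 5 (1.66 and 1.73), at adjusted p from 0.0518 to 0.0677.

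Among 15 tested neuroendocrine transcription factors, Foxa2 was the 1 called gene. Foxa2, a forkhead factor of endoderm, lay at -0.53, -1.53, 1.27, 1.02 and 0.97 on central and at -2.18, -3.22, -2.95, -2.94 and -3.22 on peripheral arrays, a difference of 3.14 (SE 0.44, adjusted p = 0.00244), or 8.85-fold. Its relative Foxa1 differed by 0.56 (SE 0.17, adjusted p = 0.232). Further called regulators of transcription, picked here after their values were seen, were Hoxb7 (2.64, SE 0.49, adjusted p = 0.0139), Hoxb8 (1.89, SE 0.40, adjusted p = 0.0344), Cited1 (2.12, SE 0.37, adjusted p = 0.0098) and Tshz2 (0.61, SE 0.13, adjusted p = 0.042). Other probes of Tshz2 gave smaller differences of 0.34, 0.12 and 0.35. Hoxb7 and Hoxb8 are neighbours in a cluster of homeobox genes. Their probes lie on chromosome 11 of mm7 at 96398936 to 96398995 and 96394181 to 96394240.

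Genes best known from neurons formed the list with the most calls beside the granins. Of 21 tested, 5 were called, 20 lay above 0 and the median was 0.54. Dner, a transmembrane ligand with EGF repeats that can bind Notch, lay at -0.39, -1.85, 1.18, 1.76 and 1.06 on central and at -3.49, -2.92, -3.74, -2.50 and -3.03 on peripheral arrays. The difference was 3.49 (SE 0.51, adjusted p = 0.00259), and 2.84 on a second probe. Elavl4, an RNA-binding protein of neurons, was well above background on no peripheral array and at least 4.44-fold higher in the central area (measured difference 2.53, adjusted p = 0.00746). Ncam1, a cell adhesion molecule and common stain for neuroendocrine tissue, differed by 2.01 (SE 0.34, adjusted p = 0.00821), and by 1.99 on a second probe. Other probes of Ncam1 gave 0.01, -0.26 and 0.22, the first of them well above background on all dissected arrays, so the probes of this gene disagree. Mapt, the microtubule protein tau, differed by 2.19 (SE 0.40, adjusted p = 0.0129), a call lost without central array 3 (2.06, adjusted p = 0.0502). A second Mapt probe gave 1.68 (adjusted p = 0.0866) and another 0.88. Kif1a, a motor that carries vesicles along microtubules, differed by 1.83 (SE 0.34, adjusted p = 0.015). Its call was lost without central array 3, 4 or 5 (1.68, 1.78 and 1.65) or peripheral array 2 or 3 (1.68 and 1.64), at adjusted p from 0.054 to 0.0631. Uchl1 differed by 1.23 (adjusted p = 0.132). No gene of Schwann cells and myelin was called out of 10 tested, and the median of that list was -0.06, with Sox10 at -0.16.

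The gene with the smallest p of the comparison was Cxcl13, a chemokine that draws B cells. It lay at -0.40, -1.91, 0.81, 0.65 and 0.94 on central and at -4.54, -4.32, -5.13, -4.12 and -4.23 on peripheral arrays. The areas were separated by more than their spread, with a difference of 4.48 (SE 0.42, adjusted p = 6.89e-05), or 22.4-fold. No gene of the B cell list beside it passed the test. Cd79b differed by -0.25 and Ighm by -0.23, the lymphotoxins Ltb and Lta by -0.28 and -0.03, and Cd79a, Ms4a1 and the receptor Cxcr5 were too dim to be tested. The Cxcl13 probe lies on chromosome 5 of mm7 at 95174192 to 95174251.

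Single genes of the Notch, progenitor and matrix lists were called as well. Dll3, a Notch ligand common in neuroendocrine cells, differed by 1.71 (SE 0.30, adjusted p = 0.00864), while the receptors Notch1 to Notch4 lay between -0.12 and 0.39 and Dll1 at -0.08. Aldh1a2, which makes retinoic acid, differed by 2.31 (SE 0.39, adjusted p = 0.00799), with Aldh1a1 at 0.65 (adjusted p = 0.807) and Aldh1a3 at 0.08 (adjusted p = 0.991). Thy1, listed as a fibroblast gene and also made by neurons, differed by 1.74 (SE 0.31, adjusted p = 0.0121). A second Thy1 probe gave -0.02, and the collagens Col1a1 and Col3a1 lay at -0.39 and -0.08.

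**Figure D3:**
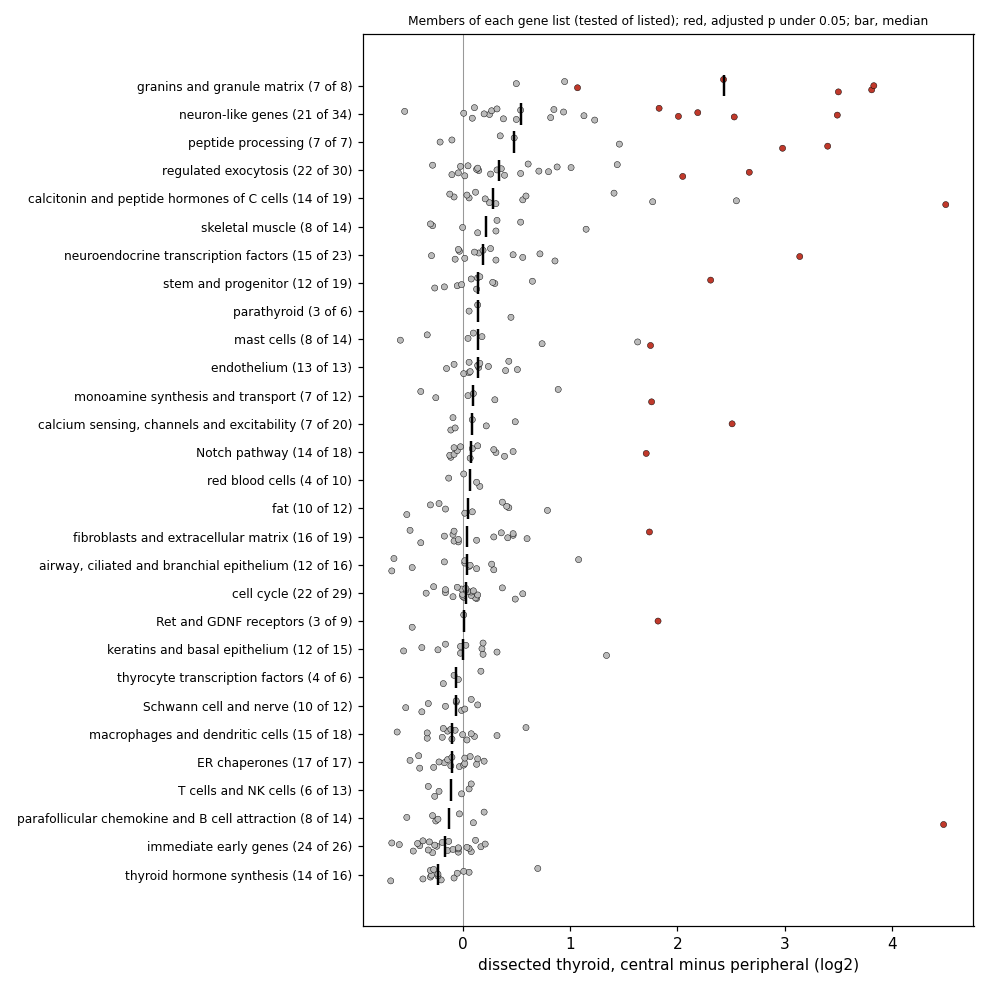
Central minus peripheral difference (log2) in dissected thyroid for each tested member of the 29 gene lists, ordered by list median (black bar); red points passed an adjusted p of 0.05 and grey points did not. Granins lie farthest right, the called points of most other lists stand apart from their list's remaining members, and thyroid hormone synthesis has the lowest median.

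The lists hold 24 of the 86 called genes, and 62 belong to none. The following were among the 30 with the smallest p. Dusp26, a phosphatase found in neural tissue, differed by 2.30 (SE 0.30, adjusted p = 0.00126), Lrp11 by 2.45 (SE 0.34, adjusted p = 0.00244) and Sez6l2, a membrane protein of neurons, by 2.70 (SE 0.38, adjusted p = 0.00244). Fbxl16 differed by 3.10 (SE 0.46) and Aplp1, a relative of the amyloid precursor protein, by 2.71 (SE 0.41), at adjusted p of 0.00284 and 0.00334. The doublecortin-like kinase Dclk2 differed by 2.40, Elapor1 by 2.36, the long non-coding RNA Snhg11 by 2.28, Best1 by 1.69 and Gpr179 by 1.50. Nnat, an imprinted gene of neuroendocrine cells, was at least 2.17-fold higher and Tmem130 at least 4.09-fold higher. The transcripts AK028004 and TC1418772, which carry no gene symbol in the files, differed by 2.26 and 1.66. Second probes of Elapor1, Snhg11 and Gpr179 gave 0.42, 0.77 and 0.56 and were not called. Called receptors, picked after their values were seen, included the glucagon receptor Gcgr (1.92, SE 0.34, adjusted p = 0.00947), the histamine receptor Hrh3 (at least 1.75-fold higher) and the neurotensin receptor Ntsr2 (at least 1.59-fold higher). In all, 16 of the 86 had only such a lower bound, since their probes were well above background on no peripheral array. For the weakest calls, Meg3 and Dpp7 lay just inside the threshold at an adjusted p of 0.0474, and Snap91 and AW986112 just outside at 0.0542 and 0.056.

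Not every called gene shared the low value of central array 2. In 8 genes another central array was the lowest, among them Rcan2, Gas6 and Tshz2, described here after their values were seen. Rcan2, an inhibitor of calcineurin, lay at 0.46, 0.47, 0.42, 0.17 and 0.24 on central and at -0.42, -0.30, -0.51, -0.51 and -0.71 on peripheral arrays. Its difference was small but its spread was smaller, with SDs of 0.14 and 0.15, and it differed by 0.84 (SE 0.13, adjusted p = 0.00334). Gas6, a ligand of the TAM receptor kinases, lay at 0.35, 0.48, 0.57, 0.62 and 0.71 against 0.15, -0.36, -0.58, -0.08 and -0.24, a difference of 0.77 (SE 0.16, adjusted p = 0.0402). It was the 1 called gene above 0 on a peripheral array. The gap of central array 2 to the median of the other central arrays was 0.14 for Rcan2, -0.11 for Gas6 and -0.08 for Tshz2. Over the called genes the median of that gap was -1.40.

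Mast cell genes differed from one another. Mast cells are tissue-resident immune cells that store proteases in granules. Mcpt4, a chymase of connective tissue mast cells, lay at 0.89, -0.37, 1.31, 1.39 and 1.30 on central arrays. It lay at -0.40 and -0.68 on peripheral arrays 1 and 2 and between -1.19 and -0.94 on the others. The groups touched without overlapping, since central array 2 lay next to peripheral array 1, and the difference was 1.75 (SE 0.31, adjusted p = 0.00986). Without any 1 array it stayed between 1.63 and 2.07 and was called each time. It was not called with the 10 dissected arrays fitted alone (adjusted p = 0.065), nor within either scan day (2.45, adjusted p = 0.168, and 1.28, adjusted p = 0.823). Cpa3, a carboxypeptidase stored with the chymases, lay at 0.99, -0.30, 1.59, 1.64 and -0.69 on central and within -1.29 to -0.33 on peripheral arrays, a difference of 1.63 (SE 0.42, adjusted p = 0.108). Central array 5, high in Mcpt4, was low in Cpa3 and in Cma1, where it lay at -0.18. Cma1, another chymase, differed by 0.74 (SE 0.21, adjusted p = 0.186). The growth factor receptor Kit lay the other way, at -0.58 (SE 0.17, adjusted p = 0.201), Ms4a2 at 0.05, Hdc at 0.18 and Gata2 at -0.33. Of the 8 mast cell genes tested 1 was called and 6 lay above 0, with a median of 0.14, and the tryptase Tpsb2 was too dim to be tested. The list's mean level ran from -0.05 to 0.49 over the central and from -0.38 to 0.05 over the peripheral arrays.

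**Figure D4:**
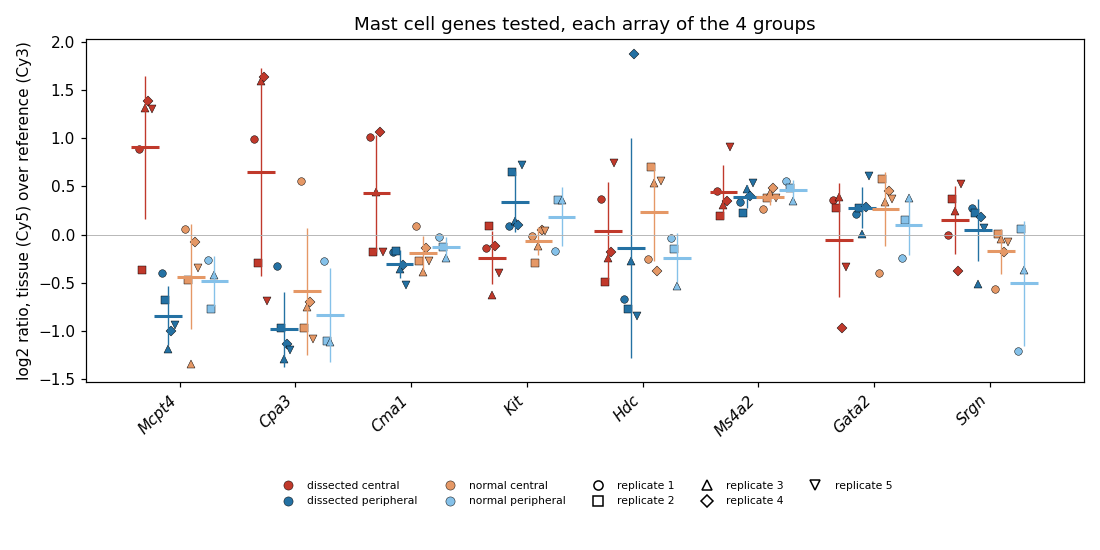
Log2 ratio of tissue over reference on each array for the 8 tested mast cell genes in dissected central (red), dissected peripheral (blue), normal central (orange) and normal peripheral (light blue) thyroid; symbols mark the replicate number, horizontal bars the mean and vertical lines 1 SD. Mcpt4 is high on 4 of 5 dissected central arrays, Cpa3 on 3, and Ms4a2, Gata2 and Srgn show overlapping groups.

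No thyrocyte gene passed the test, and both areas carried these genes. Tg, the hormone precursor thyroglobulin, lay at 0.89, 0.90, 1.40, 1.16 and 0.69 on central and at 1.20, 1.34, 1.82, 1.02 and 3.01 on peripheral arrays, a difference of -0.67 (SE 0.31, adjusted p = 0.667). Peripheral array 5 was the highest of all, and central array 2 lay inside the central range. With Cy5 alone the Tg difference was -0.10. In Cy3, the reference channel, this probe's intensity ran from 71302 to 121649 in the central and from 21185 to 90070 in the peripheral group. The part of this in the Tg ratio was not tested. The thyrotropin receptor Tshr differed by -0.05 (SE 0.17), and the lineage factors Pax8 and Nkx2-1 by -0.04 (SE 0.20) and -0.18 (SE 0.21). Tshr was well above background on 2 central and 3 peripheral arrays only. Of 14 tested genes of hormone synthesis 0 were called and 3 lay above 0, with a median of -0.23, the lowest of the lists. The direction of Tshr and Pax8 turned under some alternatives. Foxe1 and the iodide transporter Slc5a5 were too dim to be tested.

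None of the lists for dividing or stressed cells or for neighbouring tissues held a called gene. Mki67, a marker of dividing cells, differed by 0.49 (SE 0.43, adjusted p = 0.899), and the medians were 0.03 over 22 cell cycle genes, -0.16 over 24 immediate early genes and -0.10 over 17 chaperones of the endoplasmic reticulum. Pth, the parathyroid hormone, lay between -5.17 and -3.31 on the 10 arrays, was well above background on 1 array of each area and differed by 0.45 (SE 1.23). Medians were 0.14 over 13 endothelial genes, 0.05 over 10 fat genes, 0.22 over 8 muscle genes, 0.00 over 12 keratins and related genes, 0.04 over 12 airway genes, 0.07 over 4 red blood cell genes, -0.10 over 15 macrophage genes and -0.11 over 6 T cell and NK cell genes. For a gene with the typical precision, the 95% confidence interval of the difference, not adjusted for the number of genes, reached 0.41 to either side. A call after adjustment needed a larger difference at that precision, so differences above 0.41 could also be missed.

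On the other side, the 10 genes with the smallest p for a lower level in the central area were not called when the 18 arrays were fitted without slide. Cp, which encodes the copper protein ceruloplasmin, lay at -0.17, -1.18, -0.52, -0.43 and -0.17 on central and at 0.50, -0.04, 0.72, 0.24 and 0.32 on peripheral arrays, well above background on all of them, and differed by -0.84 (SE 0.20, adjusted p = 0.0683). Its arrays did not overlap. Abcb10, a mitochondrial transporter, differed by -0.78 (SE 0.18, adjusted p = 0.0629) but was well above background on no central array. The histone methyltransferase Kmt5a differed by -1.21 (SE 0.28, adjusted p = 0.0683), and a second probe of it gave 0.07. The others were Tcea3, Bzw1, Nipal2, AK031844, BC028454, Zbtb18 and Crls1, with Crls1, the cardiolipin synthase, at -0.69 (SE 0.18, adjusted p = 0.108). Other probes lay closer to 0, at -0.05 for Tcea3, -0.05 and -0.15 for Bzw1, -0.03 for Nipal2 and -0.25 for Crls1. Of these 10 genes, chosen by their small p, all but Crls1 had a central value below the peripheral one on every slide (n = 5), with Cp between -1.24 and -0.50. Several lie near the threshold. With slide as a block 4 genes were called lower in the central area, among them Cp, Bzw1 and BC028454. Counted over all alternatives, Bzw1 was called under 3, and Abcb10, Cp, AK031844 and BC028454 under 2 each. Kmt5a, Nipal2 and Crls1 were each called under 1.

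Normal thyroid served to ask whether the difference between the areas was another one after surgery. There, 41 genes were called higher in the central area (0.280% of the genes tested), and 33 were called in both states. All 86 genes had the same sign in normal thyroid, with a median difference of 1.67 there and 1.81 after surgery. The 86 were chosen by their call after surgery, which favours larger values there, so nothing is read from these medians. No array is shared by these differences, but a gene called in 1 state and not the other is not thereby shown to differ. The test of the difference itself called 0 of 14664 genes in limma (0.00%), the smallest adjusted p being 0.789, with 853 genes (5.82%) at an unadjusted p under 0.05. Of the 86, 5 were among those 853. Mcpt4 differed by 0.04 in normal thyroid (SE 0.36) and by 1.71 more after surgery (95% confidence interval 0.71 to 2.70, unadjusted p = 0.00203, adjusted p = 0.789). For Cpa3 the excess was 1.39 (0.03 to 2.75) and for Cma1 0.81 (0.12 to 1.49), both also at an adjusted p of 0.789. Kit, Gata2, Hdc and Srgn went the other way, with an excess below 0. Over the 8 mast cell genes tested the median difference was 0.14 after surgery and 0.11 in normal thyroid. Besides Mcpt4, the 5 called genes among the 853 were Rcan2 (0.57, interval 0.16 to 0.99), Pcbd1, a cofactor recycling enzyme and transcription cofactor (0.74, interval 0.20 to 1.29), Best1 (0.87, interval 0.02 to 1.71) and 9630041G16Rik (1.24, interval 0.27 to 2.22). For the genes with the largest differences named above the intervals spanned 0. Calca had an excess of 0.66 (-1.39 to 2.71), Scg3 of 0.47 (-0.92 to 1.86), Chgb of -0.01 (-1.47 to 1.46), Foxa2 of 0.10 (-1.33 to 1.52) and Cxcl13 of 0.34 (-1.01 to 1.70). The smallest unadjusted p over all genes belonged to Ly6g6e, which differed by -0.43 after surgery and 0.89 in normal thyroid, followed by Medag (0.72 and -0.46), Dusp22 (-0.19 and 0.74), Cul5 (-0.40 and 0.73), Tbc1d9 (0.05 and 0.76) and Plekhh3 (0.47 and -0.57), none of them called. Other probes of Cul5 gave -0.28 and 0.58 after surgery, so its probes disagree in sign, and a second Medag probe gave 0.24.

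**Figure D5:**
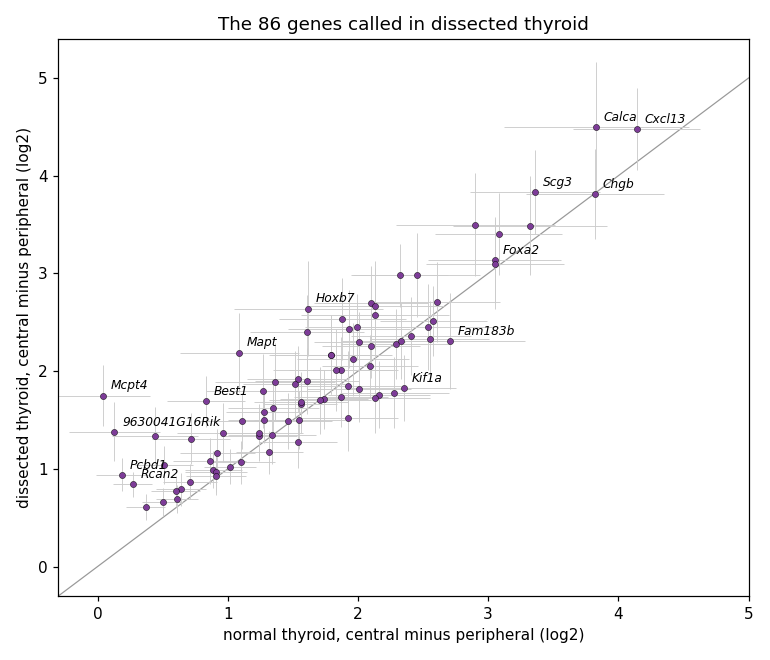
Central minus peripheral difference (log2) in dissected thyroid (vertical axis) against that in normal thyroid (horizontal axis) for the 86 genes called in dissected thyroid; points are fitted differences, bars 1 SE, and the line marks equal differences. Most genes lie near the line, and Mcpt4 and 9630041G16Rik lie near 0 on the horizontal axis.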

How the data were processed

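Captured thyroid areas were measured on 18 Agilent 2-colour arrays of 45018 spots. Per the file headers, Agilent Feature Extraction 9.5.1.1 gave the spot and background intensity, flags and a log10 ratio of processed signals, while the submitters' processing notes name 8.5.1.1. The authors also deposited a table of linear ratios, whose processing is not given in the sources used here, used as an alternative. It was matched on 40934 probes.

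The deposited intensities were background-corrected (normexp, offset 50) and loess-normalized to log2 ratios, with 1639 controls at weight 0 and non-uniform spots left out. Probes well above background in Cy5 on at least 3 arrays were kept (19082 of 41174), and the brightest stood for its gene. Of the 41174, 22951 were named by accession, 6659 by symbol and 3109 by an older symbol through RefSeq (GRCm38.p6), and 8455 kept the file's name. Probe positions are the files' own, on mm7; no genome of that build was used, so the exon or UTR under a probe was not determined. Means of the 4 groups were fitted in R 4.3.3 by limma 3.58.1 over all 18 arrays (files read with data.table, version 1.17.8), with Benjamini-Hochberg adjustment over 14664 genes and two-sided tests, after a check on simulated data. For a probe well above background on no array of an area, the fold is the bright area's mean over, per array, the higher of the background limit and the probe's own signal.

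Members, lists and tests were chosen with earlier results of these data known. Genes were named if among the 30 smallest p higher or 10 lower in the central area, or the 6 smallest for the difference between states. Called list members and fixed markers were named as well. Other genes, uncalled list members such as Grp, Sst and Snap91 among them, were picked with their values known, which is not said at each place. Some listed genes are not reported here. Second probes were added after seeing the data. Slides and scan days were taken from the files.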

Additional observations from a re-analysis of the deposited data

Results flagged for a closer look

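In 16 of 124 groups of 5 arrays looked at, or 4 for Calca in the central area, 1 array lay far from the others of its area (12.9%). Chance alone gives about 1 in 20 for unrelated groups. These groups share arrays, and many of their genes were chosen by their difference, so that rate is no yardstick here. Of the 16, 7 fell on central array 2 and 6 on peripheral array 1, which are among the arrays with the lowest share of probes above background. Their part in this was not tested. Central array 2 was far below the other central arrays for Pnoc (-1.26), Pcsk2 (-2.02), Sez6l2 (-1.37), Pcsk1 (-1.63), Aplp1 (-1.19), Dclk2 (-1.35) and Mcpt4 (-0.37). Peripheral array 1 was above the other peripheral arrays for Foxa2 (-2.18), TC1418772 (-0.80), Nnat (-0.89), Tmem130 (-1.21) and Pth (-3.42), and below them for Mapt (-1.73). Abcb10 stood out on peripheral array 4 (1.41), Zbtb18 on central array 3 (0.24) and Ly6g6e on peripheral array 3 (0.57).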

How the results depend on the processing

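The 86 calls became 21 with the 10 dissected arrays fitted alone, 26 and 0 within each scan day, 193 without the 4 arrays with the fewest probes above background (188 higher centrally, 84 of the 86 among them), 37 after quantile normalization between arrays and 45 with Cy5 alone. Leaving out 1 dissected array in turn gave 48 to 173 calls, at most 3 of them lower centrally, and 43 of the 86 passed in all 10 of these fits and with slide as a block. The replicate block, with replicate number as a term, gave 84 calls (81 higher in the central area, 71 of the 86 among them), and the slide block 89 (85 and 71). Dissected arrays of the same number correlated at 0.07 to 0.21 after removing group means, each best with its own number. They also shared a slide, so a pairing by animal and a shared slide cannot be told apart. Counts under the other alternatives stayed within 1.5 times of 86, the deposited table giving 89. The test of the difference between states called 0 genes wherever it was run.

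Leaving out 1 dissected array in turn, Tshr ranged from -0.20 to 0.03 and Pax8 from -0.14 to 0.16. Signs turned only in genes that were not called, or on a second probe, and the cause was not tested. Pax8 lay at 0.04 on 1 scan day, 0.03 without central array 1 and 0.16 without peripheral array 3. Tshr lay at 0.03 without central array 3, 0.00 without central array 5 or peripheral array 5, 0.03 with the scanner program's log ratio, 0.07 with Cy5 alone and 0.06 in the deposited table. Pth lay at -0.18 after quantile normalization and -0.12 with Cy5 alone. Second probes gave 0.07 for Kmt5a and -0.02 for Thy1. Of 725 list medians under alternatives, 22 moved by more than the spread between replicates. The number of arrays and dim probes limit the precision.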
